A study of Mus musculus with 12 samples.

Results

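The histone genes of the mouse chromosome 13 cluster were followed in primary mammary epithelial cell (MEC) cultures that lack the transcriptional repressor Blimp-1, encoded by Prdm1. Members were all array probes whose symbol began with Hist1h, or whose current name is that of an H1, H2A, H2B, H3 or H4 gene on chromosome 13. They were selected by name and on measured values, since a probe also needed a detection p-value under 0.05 on at least 3 of 12 arrays, which sets its signal against the negative control beads of that array. Of 70 such probes for 47 genes, 54 probes for 39 genes met this rule, among 19972 tested probes of 45281 on the array and 10724 genes with a tested probe. RefSeq lists 55 histone genes in the interval, at chromosome 13, 21715711 to 23934913 (GRCm38.p6). By class, 3 probes (2 genes) report linker histone H1, 14 (10 genes) H2A, 11 (9 genes) H2B, 10 (7 genes) H3 and 16 (11 genes) H4. Of the 54 probes, 46 were detected on all 12 arrays and 8 on fewer. Just inside the rule lay H2bc3 and H3c8, each detected on 7 arrays, and just outside it H1f3 and H2ac1, each detected on 2. The 16 dim probes left out include those of H1f1, H1f3, H1f4 and H1f6, so that the H1 class is represented by H1f2 and H1f5 alone.

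The arrays, Illumina Mouse WG-6 v2 BeadChips, hold 4 groups of 3. The D4 cKO and D3 cKO groups are Blimp-1 cKO cells from pregnant Prdm1 BEH/CA;ROSA26:CreERT2 females, harvested on Day 4 (D4) or Day 3 (D3). The D4 wild type and D3 wild type groups are cells of pregnant C57BL/6 females, harvested on the same days. Cells of both genotypes were grown as acini on Matrigel and given 4-hydroxytamoxifen (4-OHT) on D0, which switches on CreERT2. The ROSA26 locus drives Cre in most cell types, so the deletion is not confined to epithelium. The wild type animals were not described as Cre carriers, so that Blimp-1 loss, Cre activity and donor line cannot be told apart here. Whether the 3 arrays of a group came from separate animals is not stated for each array, so that the p-values reflect variation among the RNA samples used, part of which may be technical.

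Core histones H2A, H2B, H3 and H4 form the protein spool on which DNA is wound, and the linker histone H1 binds where DNA enters and leaves it. Most genes of this cluster are switched on at the entry into S phase, when new DNA must be packaged, and their mRNA falls away when DNA synthesis stops. These mRNAs usually end in a stem-loop and carry no poly(A) tail, although several genes of the cluster, among them H1f2 and some H2B genes, also give polyadenylated mRNA in cells that have left the cycle. The usual Illumina labelling starts from an oligo(dT) primer, so it reaches such polyadenylated forms more readily. Genes of a class are nearly identical in coding sequence, and a probe may bind the mRNA of a neighbour, so the values below are those of a probe and its gene assignment stays uncertain to that degree.

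Many H2A and H2B genes stand head to head and share the DNA between their start sites. The promoter table holds 9 such pairs with start sites at most 500 bases apart, and in 4 of them both genes had a tested probe. The sequence between the start sites of these 4 pairs is shown because the results below set the H2B gene of each against its H2A partner. Each is written 5′ to 3′ on the strand of the H2B gene (RefSeq, GRCm38.p6), with CCAAT boxes and the octamer ATTTGCAT on either strand in capitals.
H2bc7 with H2ac7 (chr13:23574208-23574380, minus strand): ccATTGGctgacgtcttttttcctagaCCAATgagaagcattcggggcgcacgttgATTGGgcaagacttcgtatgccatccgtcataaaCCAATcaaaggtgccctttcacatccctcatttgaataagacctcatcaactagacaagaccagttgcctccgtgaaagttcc
H2bc15 with H2ac15 (chr13:21753913-21754075, plus strand): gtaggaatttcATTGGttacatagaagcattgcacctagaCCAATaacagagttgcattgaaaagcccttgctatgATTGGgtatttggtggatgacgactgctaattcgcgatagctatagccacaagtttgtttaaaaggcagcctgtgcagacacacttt
H2bc11 with H2ac11 (chr13:22042950-22043197, plus strand): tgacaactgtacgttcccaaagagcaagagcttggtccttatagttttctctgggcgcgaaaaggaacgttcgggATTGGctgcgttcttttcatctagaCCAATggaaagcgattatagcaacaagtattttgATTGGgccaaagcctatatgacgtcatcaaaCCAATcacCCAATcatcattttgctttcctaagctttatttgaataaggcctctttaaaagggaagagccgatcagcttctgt
H2bc12 with H2ac12 (chr13:22035644-22035820, plus strand): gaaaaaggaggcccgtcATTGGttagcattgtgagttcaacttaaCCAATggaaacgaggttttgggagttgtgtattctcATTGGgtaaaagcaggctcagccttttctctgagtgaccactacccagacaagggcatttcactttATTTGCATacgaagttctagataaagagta
The windows hold 4, 3, 5 and 3 CCAAT boxes, and the octamer occurs only in the window of H2bc12. The 120 bases before the start sites of H2bc9, H2bc14 and H1f2, which like H2bc7 were called higher in cKO on both days, are given with the same motifs and the letters AAACACA, known as the H1 box, in capitals.
H2bc9 (chr13:23543445-23543564, minus strand): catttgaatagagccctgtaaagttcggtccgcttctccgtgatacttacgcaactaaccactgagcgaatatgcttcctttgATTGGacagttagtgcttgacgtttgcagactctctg
H2bc14 (chr13:21721924-21722043, plus strand): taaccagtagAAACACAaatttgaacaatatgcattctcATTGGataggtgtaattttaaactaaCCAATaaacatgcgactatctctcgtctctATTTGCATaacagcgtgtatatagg
H1f2 (chr13:23738687-23738806, plus strand): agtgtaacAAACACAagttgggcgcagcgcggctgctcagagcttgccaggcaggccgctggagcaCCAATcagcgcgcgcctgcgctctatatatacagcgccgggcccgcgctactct
Promoters were in the table for 50 of the 55 genes of the cluster (36 of the 39 tested genes). In the 250 bases before the start site, on either strand, CCAAT stood in 100% of H1, H2A, H2B and H3 promoters and in 27.3% of H4 promoters, against 33.8% of all promoters. The octamer stood in 38.5% of H2A and 42.9% of H2B promoters and in 0% of H1, H3 and H4 promoters, against 1.6% of all. AAACACA stood in 83.3% of H1 promoters, against 6.25% of all promoters. The TATA letters TATAAA stood in 38.5% of H2A to 66.7% of H1 promoters, against 12.4% of all. These matches are letters in a window and no measurement of binding.

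The signals below are log2 values after background correction and quantile normalization. A probe was called where the adjusted p of limma was at most 0.05, over all 19972 tested probes, and the fold at least 1.5. Each array detected 18087 to 18905 probes, and arrays of a group correlated with one another at a mean r of 0.985 to 0.992. The Prdm1 probe 2597923 read 6.61 to 6.99 on D4 cKO arrays, against 5.33 to 5.84 on D4 wild type arrays, and its place relative to the deleted part is not known. It was detected on 3 D4 cKO arrays, 1 D3 cKO array and no wild type array. The other Prdm1 probe, 2744650, was detected on no array. Luminal epithelial markers were present, 13 of 15 genes being detected on all arrays, while none of the 8 lymphocyte probes and none of the 2 red blood cell precursor probes on the array met the detection rule. Markers of basal mammary cells stood higher on cKO arrays. Their 13 probes had a median log2 difference between cKO and wild type of 0.97 at D4 and 0.91 at D3, with 2 called higher each day. Their summed linear signal was 77696 to 98434 on D4 cKO arrays, against 56186 to 71775 on D4 wild type arrays, and 82310 to 108762 on D3 cKO arrays, against 67189 to 77852 on D3 wild type arrays. The basal genes Cnn1 and Oxtr were too dim. Of 14 fibroblast probes, 1 was higher in cKO each day, with summed signals of 14931 to 18602 on D4 cKO arrays, against 8810 to 14892 on D4 wild type arrays, and 12091 to 15177 on D3 cKO arrays, against 8188 to 10446 on D3 wild type arrays. Myeloid sums at D4 were 16847 to 23862 on cKO arrays, against 24396 to 30316 on wild type arrays. The part of these differences in the genotype results below was not tested. In bulk RNA, fewer cells of a type and less mRNA per cell cannot be told apart.

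The comparison of cKO with wild type cultures asks how these transcripts differed by genotype, a contrast that joins Blimp-1 loss with Cre activity and donor line. Of the 5 classes, H2B had the most probes called by genotype on either day, and its mRNAs encode the partner of H2A in the nucleosome. At D4, 3 of 11 H2B probes were higher in cKO cultures and none lower, with a median log2 difference of 0.42. At D3, 5 were higher and none lower, with a median of 0.54. Over all 54 histone probes, 5 were called higher and 2 lower at D4, where 2.59% of all tested probes were higher and 1.33% lower. At D3, 9 were higher and none lower, where 1.75% of all tested probes were higher and 0.501% lower. The medians over all histone probes were -0.09 at D4 and 0.12 at D3, beside -0.03 and -0.03 for all tested probes. Seen array by array, all 3 cKO arrays lay above all 3 wild type arrays for 8 of 11 H2B probes at D4 and 9 of 11 at D3. Among all tested probes this held for 10.4% at D4 and 8.45% at D3. Without D4 cKO replicate 3, 1 H2B probe was called at D4, and without D3 wild type replicate 1 or 2 or without D3 cKO replicate 1, 3 were called at D3.

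**Figure D1:**
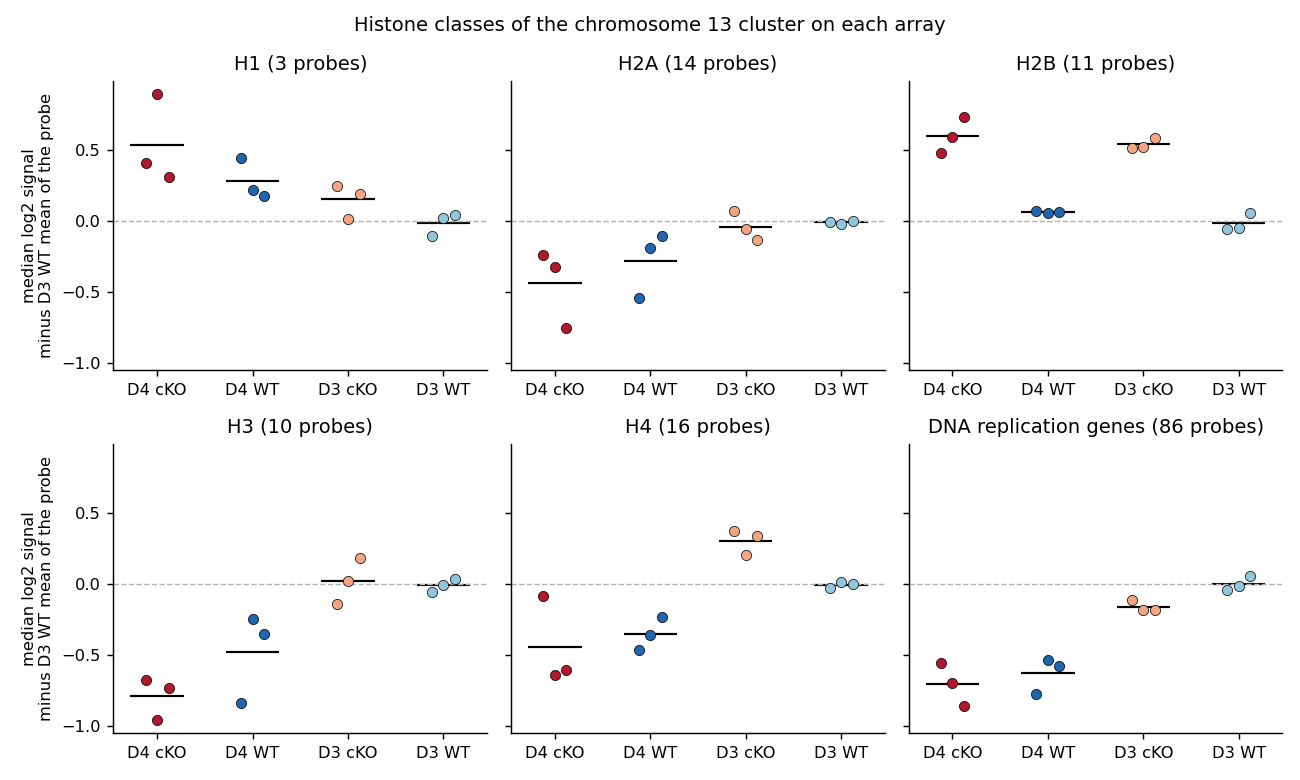
Each point is 1 array, and its height is the median, over the probes of a class, of the log2 signal minus that probe's mean on the D3 wild type arrays. Bars are means of 3 arrays, with panels for the 5 histone classes and for DNA replication genes. The H2B medians lie at 0.48 to 0.74 on D4 cKO and 0.52 to 0.59 on D3 cKO arrays, above the wild type arrays of the same day, while H3 and H4 lie lower at D4.

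H2bc7 (Hist1h2bf, probe 2719202), at chromosome 13, 23573760, is shown first because it had the smallest standard error of the H2B probes. It read 12.37, 12.44 and 12.48 in D4 cKO cultures, against 11.82, 11.86 and 11.81 in D4 wild type cultures. At D3 it read 12.41, 12.32 and 12.47 in cKO cultures, against 11.68, 11.76 and 11.81 in wild type cultures. The genotypes did not overlap on either day, and the log2 differences were 0.60 ± 0.09 (SE, adjusted p = 0.00237) at D4 and 0.65 ± 0.09 (adjusted p = 0.00149) at D3. These are 1.51-fold and 1.57-fold higher signals. H2bc9 (Hist1h2bh, probe 2716195) read 11.50, 11.81 and 11.87 in D4 cKO cultures, against 10.96, 11.05 and 11.05 in D4 wild type cultures. At D3 the readings were 11.68, 11.56 and 11.64 in cKO, against 10.95, 10.93 and 11.17 in wild type cultures. Again the genotypes were apart on both days, by 0.71 ± 0.12 (adjusted p = 0.00494) at D4 and 0.61 ± 0.12 (adjusted p = 0.0148) at D3. H2bc14 (Hist1h2bm, probe 2891646), whose promoter is printed above, read 10.72, 10.56 and 10.93 in D4 cKO, against 9.92, 10.15 and 10.12 in D4 wild type cultures. Its D3 readings were 10.81, 10.66 and 10.87 in cKO, against 10.08, 10.13 and 10.19 in wild type cultures. The differences were 0.67 ± 0.12 (adjusted p = 0.00703) at D4 and 0.65 ± 0.12 (adjusted p = 0.0111) at D3, with no overlap.

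Other H2B probes were called at D3 alone, with the same sign at D4. H2bc15 (Hist1h2bn, probe 1257520) read 10.52, 10.25 and 10.53 in D3 cKO cultures, against 9.63, 9.61 and 9.82 in D3 wild type cultures, a difference of 0.74 ± 0.11 (adjusted p = 0.00264). At D4 the difference was 0.42 ± 0.11 (adjusted p = 0.0502), with readings of 10.52, 10.36 and 10.52 in cKO, against 10.02, 10.01 and 10.10 in wild type cultures. The D4 arrays did not overlap, and the probe missed both the p and the fold limit. H2bc4 (Hist1h2bc, probe 1242399) read 11.13, 11.01 and 11.50 in D3 cKO cultures, against 10.28, 10.70 and 10.35 in D3 wild type cultures, a difference of 0.77 ± 0.16 (adjusted p = 0.0282), beside 0.47 (adjusted p = 0.136) at D4. H2bc6 and H2bc11 showed smaller gaps of the same sign. The 2742592 probe of H2bc6 differed by 0.52 (adjusted p = 0.0127) at D4 and 0.54 (adjusted p = 0.0138) at D3, below the fold limit. H2bc11 differed by 0.40 (adjusted p = 0.0565) at D4 and 0.47 (adjusted p = 0.0410) at D3, also below it. H2bc12 and H2bc3 did not share these gaps. The H2bc12 probes differed by -0.02 and 0.01 at D4 and by 0.18 and -0.02 at D3. The dim H2bc3 probe differed by -0.12 (adjusted p = 0.786) at D4, where no wild type array detected it, and by 0.28 (adjusted p = 0.585) at D3, and the genotypes overlapped on both days.

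The H2A partners of H2bc7, H2bc15, H2bc11 and H2bc12, the pairs with tested probes of both genes, were not called by genotype. For H2bc9, H2bc14 and H2bc4 no such pair was in the promoter table. H2ac8, described below as lower in D4 cKO cultures, is the partner of H2bc8, which had no tested probe. H2ac7, which shares its promoter with H2bc7, had probe differences of -0.09 and -0.07 at D4 and 0.06 and -0.05 at D3. Its 2795040 probe read 13.89, 13.85 and 13.32 in D4 cKO cultures, against 13.37, 13.88 and 14.02 in D4 wild type cultures, so that the genotypes overlapped. In the H2bc15 pair the H2A gene differed by -0.19 at D4 and -0.14 at D3, and in the H2bc11 pair by -0.25 and 0.03. For the H2bc12 pair the means over probes were -0.20 for H2A and -0.01 for H2B at D4, and 0.05 and 0.08 at D3. The H2B value was above the H2A value in 4 of 4 pairs on both days, which is a description of these probes, as no test sets a probe of 1 gene against that of another. The same order held in 4 of 4 pairs for the difference of D4 from D3, in cKO and in wild type, so it is not particular to the genotype comparison. H2A probes were among the brightest on the array, which bears on this comparison. Their median signal lay at the 98.1st percentile of tested probes, 4 of 14 in the top 1% and 10 in the top 5% against the 76.5th percentile for H2B. Whether signals so near the upper end of the range narrow the differences was not tested.

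Linker histone H1f2 (Hist1h1c, probe 2774537, chromosome 13, 23738807) was also higher in cKO cultures on both days, as was H4c3, described with its class below. It read 13.28, 13.49 and 13.26 in D4 cKO cultures, against 12.64, 12.35 and 12.42 in D4 wild type cultures. At D3 it read 13.11, 12.84 and 13.07 in cKO cultures, against 12.09, 12.25 and 12.24 in wild type cultures. The genotypes did not overlap, with differences of 0.88 ± 0.12 (1.83-fold, adjusted p = 0.00148) and 0.82 ± 0.12 (1.76-fold, adjusted p = 0.00254). Its other probe, 2855315, nearly as bright, differed by 0.24 (adjusted p = 0.428) at D4 and 0.15 (adjusted p = 0.754) at D3. On this probe D4 cKO cultures read 12.80, 13.29 and 12.70 and D4 wild type cultures 12.86, 12.65 and 12.57, which overlap. Thus the increase rests on 1 of 2 H1f2 probes, and where each lies along the transcript is not known here. H1f5, the other H1 gene, was dim, with readings of 7.43, 7.40 and 6.91 in D4 cKO, against 6.93, 7.78 and 7.43 in D4 wild type cultures, and it was called in no comparison.

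**Figure D2:**
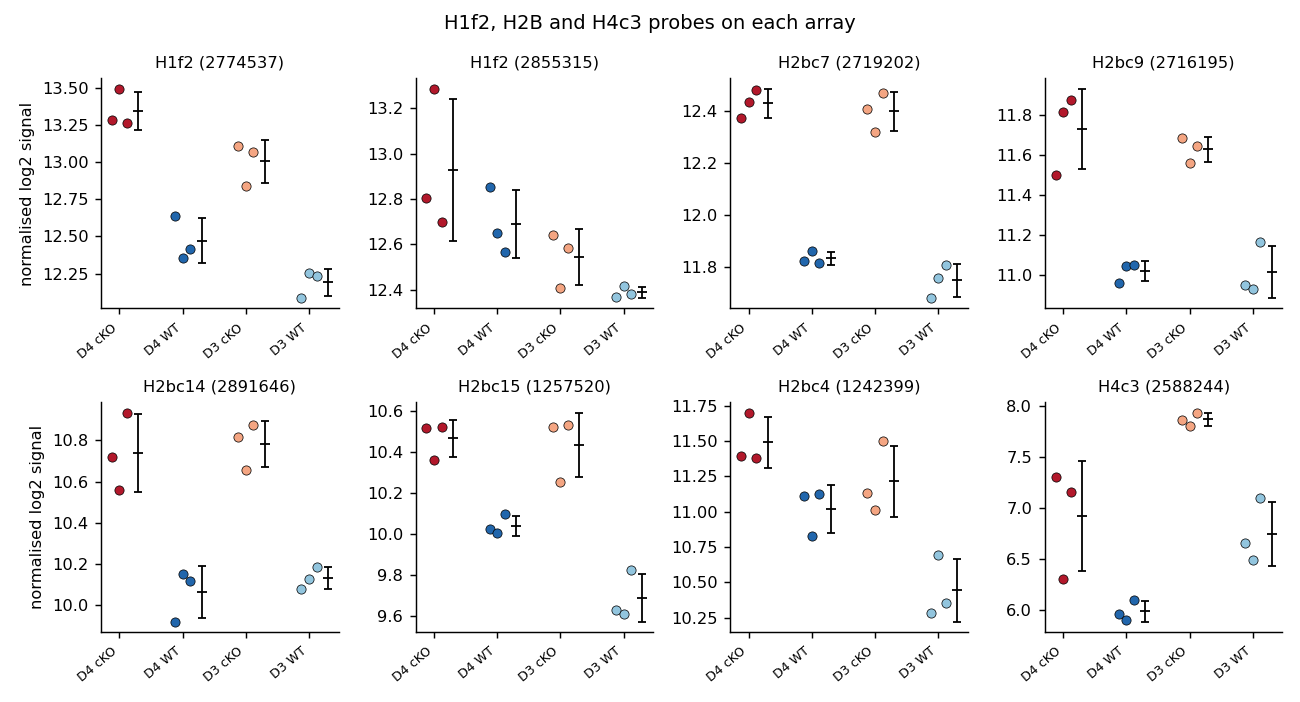
Normalised log2 signal of H1f2, H2B and H4c3 probes on each of 12 arrays, with the mean and SD of 3 arrays beside the points. The vertical axes differ between panels and do not start at 0. In H2bc7, H2bc9, H2bc14 and the first H1f2 probe the cKO points lie above the wild type points of the same day, while those of the second H1f2 probe overlap.

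H4 probes were called by genotype on both days. At D3, 3 of 16 were higher in cKO and none lower (median 0.24), while at D4, 1 was higher and 1 lower (median -0.13). At D3 the count was 0 without D3 wild type replicate 2, 1 without D3 cKO replicate 2 and 2 without D3 wild type replicate 1 or 3, and it was 2 without D3 cKO replicate 1 or 3. H4c17 (Hist1h4m, probe 1246576) read 9.40, 9.45 and 9.35 in D3 cKO cultures, against 8.65, 8.59 and 8.54 in D3 wild type cultures, a difference of 0.81 ± 0.15 (adjusted p = 0.0126). H4c18 (Hist1h4n, probe 2597653) read 9.63, 9.62 and 9.62 in D3 cKO, against 8.86, 8.67 and 8.81 in D3 wild type cultures, a difference of 0.84 ± 0.15 (adjusted p = 0.0122). By D4 the genotypes overlapped on both probes, with differences of 0.16 and 0.32. The other H4c18 probe, 2937548, did not share the D3 difference (0.12, adjusted p = 0.865). H4c3 (Hist1h4c, probe 2588244), a dim probe, read 7.87, 7.80 and 7.93 in D3 cKO, against 6.66, 6.49 and 7.10 in D3 wild type cultures (1.12 ± 0.23, adjusted p = 0.0255). At D4 it was detected on 3 of 3 cKO arrays and on 0 of 3 wild type arrays, and the signal was at least 1.6-fold higher in cKO cultures (measured difference 0.93, adjusted p = 0.0444). This bound sets the cKO mean against the dimmest signal that still counted as detected on the wild type arrays, and the D4 call was kept in 6 of 20 alternative settings, that at D3 in 13 of 20.

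The 2 probes lower in D4 cKO cultures were those of H2ac8 and 1 of 3 H4c6 probes. H2ac8 (Hist1h2ae, probe 2751102), the dimmest H2A probe, read 6.37, 6.08 and 6.68 in D4 cKO cultures, against 7.24, 7.45 and 7.29 in D4 wild type cultures, a difference of -0.95 ± 0.14 (adjusted p = 0.00280). At D3 cKO cultures read 7.44, 7.50 and 7.42 and wild type cultures 7.46, 7.36 and 7.62, which overlap. The H4c6 probes disagreed in sign. Probe 1222313 differed by -0.77 (adjusted p = 0.0474) at D4, a call kept in 3 of 20 alternative settings (adjusted p up to 0.271), while 1230265 differed by 0.55 (adjusted p = 0.0488), under the fold limit, and 2525565 by 0.41 (adjusted p = 0.353). Of 13 genes with several tested probes, 7 had the same calls on all of them in the 4 comparisons. H3 showed no genotype call, with medians of -0.33 at D4 and 0.03 at D3.

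At D4 a cKO and a wild type array of the same replicate number shared a BeadChip, which allowed differences within each of 3 BeadChips. H2B medians within them were 0.31, 0.41 and 0.42. The H2bc7 difference was 0.55, 0.57 and 0.67, and that of H1f2 probe 2774537 was 0.64, 1.14 and 0.84. H2ac8 was lower on each, at -0.88, -1.37 and -0.61. H1 medians, over 3 probes, were 0.51, 0.64 and 0.13, while those of H2A, H3 and H4 changed sign between BeadChips. H4 gave 0.22, -0.14 and -0.38, H3 gave 0.24, -0.68 and -0.46, H2A gave 0.28, -0.11 and -0.66, and DNA replication genes moved with them at 0.25, -0.18 and -0.30. When the D4 arrays were fitted by themselves with the BeadChip as a block, no histone probe was called, against 5 higher and 2 lower in the fit of all arrays. Over all 19972 tested probes, that fit called 297 higher and 62 lower, against 517 and 266 in the fit of all arrays. With so few histone probes, no call is near these shares.

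**Figure D3:**
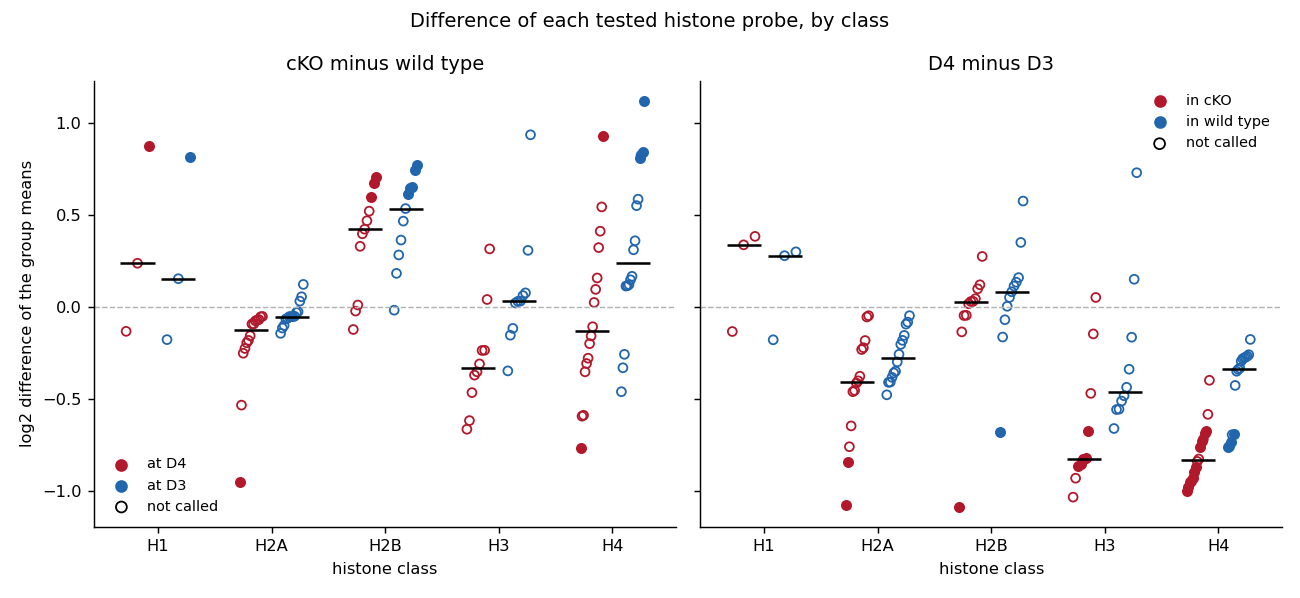
Log2 difference of each histone probe, by class, between cKO and wild type (left, at D4 and D3) and between D4 and D3 (right, in cKO and in wild type). Filled points passed the adjusted p and fold limits, open points did not, and lines are class medians. H2B stands highest on the left with medians of 0.42 and 0.54, and H3 and H4 lowest on the right with medians of -0.82 and -0.83 in cKO.

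The comparison of D4 with D3 asks how the transcripts changed as the acini aged by a day. The BeadChips of the D3 arrays were not known, so whether the days shared BeadChips could not be checked. Comparisons of genotype and of day share arrays, so their values are given side by side and no relation between them is drawn. In cKO cultures 19 of 54 histone probes, of 17 genes, fell and none rose, with a median log2 difference of -0.53. Among all tested probes, 1.59% fell and 2.18% rose in cKO cultures, with a median of -0.02. In wild type cultures 5 histone probes fell and none rose, with a median of -0.27, where 5.06% of all tested probes fell and 6.3% rose (median -0.03). All 5 of the 5 probes that fell in wild type cultures were among the 19 of the cKO cultures, which is 5 of 19 of these. Array by array, all 3 D4 arrays lay below all 3 D3 arrays for 31 probes in cKO, or 57.4%, against 14.5% of all tested probes. In wild type this held for 22, or 40.7%, against 21.1% of all tested probes. The cKO count depended on single arrays. It was 9 without D3 cKO replicate 1, 9 without D3 cKO replicate 3, 7 without D4 cKO replicate 2 and 8 without D4 cKO replicate 3. Over all 19972 tested probes the number that fell went from 317 to 103, 133, 87 and 91 without these arrays. A fit of the cKO arrays alone gave 11 histone probes with the replicate number as a block and 3 without it, against 156 and 30 of all tested probes. Pairing of D4 and D3 cKO arrays by that number was inferred from their residuals, not from labels, and the fit that gave 19 does not use it. In wild type the count was 3 without D3 replicate 1 or 2 and 2 without D3 replicate 3 or D4 replicate 1.

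By class, H4 and H3 carried most of the fall. Of 16 H4 probes, 11 (9 genes) fell in cKO and 4 in wild type cultures, with medians of -0.83 and -0.34, and every H4 probe had a negative difference in both genotypes. Of 10 H3 probes, 5 fell in cKO and none in wild type cultures, with medians of -0.82 and -0.46. H2A had 2 falling probes of 14 in cKO and none in wild type, with medians of -0.41 and -0.28, and all 14 differences were negative in both genotypes. H2B had 1 of 11 in each genotype, with medians of 0.03 and 0.08. H1 had no call, with medians of 0.34 and 0.28. In cKO cultures 4 H4 and 0 H3 probes fell without D4 cKO replicate 2, 5 and 0 without D4 cKO replicate 3, 5 and 2 without D3 cKO replicate 1, 7 and 3 without D3 cKO replicate 2, and 6 and 0 without D3 cKO replicate 3. In wild type 2 H4 probes fell without any single D4 array or without D3 replicate 1 or 3.

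H4c1 (Hist1h4a, probe 2759159), the brightest H4 probe, read 10.70, 10.35 and 10.49 in D4 cKO cultures, against 11.22, 11.22 and 11.28 in D3 cKO cultures, a difference of -0.72 ± 0.12 (adjusted p = 0.0109). In wild type it read 10.78, 10.77 and 10.92 at D4, against 11.21, 10.88 and 11.19 at D3, a difference of -0.27 (adjusted p = 0.15) with overlapping arrays. H4c9 (Hist1h4i, probe 1232524) read 9.40, 9.10 and 9.11 in D4 cKO, against 10.18, 9.87 and 10.23 in D3 cKO cultures (-0.89 ± 0.15, adjusted p = 0.0108). Its wild type difference was -0.33 (adjusted p = 0.15). H4c17 read 8.68, 8.51 and 8.23 in D4 cKO, against 9.40, 9.45 and 9.35 in D3 cKO cultures (-0.93 ± 0.15, adjusted p = 0.00999), beside -0.28 (adjusted p = 0.235) in wild type. H4c18 fell by 0.87 on probe 2597653 (adjusted p = 0.0146) and by 0.98 on probe 2937548 (adjusted p = 0.0191). H4c12 fell by 1.00 on probe 1243654 (adjusted p = 0.0121) and by 0.95 on probe 2525570 (adjusted p = 0.0226), and H4c11 fell by 0.68 (adjusted p = 0.0361). The dimmest H4 probe, 1213257 of H4c2, read 6.56, 5.94 and 5.84 in D4 cKO, against 6.31, 6.76 and 7.01 in D3 cKO cultures, which overlap.

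The 4 H4 probes that fell in both genotypes were of H4c3, H4c4, H4c6 and H4c12. H4c4 (Hist1h4d, probe 1251885) read 7.22, 6.85 and 6.85 at D4 in cKO, against 7.58, 7.84 and 7.51 at D3 (-0.67 ± 0.15, adjusted p = 0.0306). In wild type it read 7.15, 7.01 and 7.36 at D4, against 7.69, 8.03 and 7.98 at D3 (-0.73 ± 0.15, adjusted p = 0.00723). The days did not overlap in either genotype. H4c6 probe 1230265 had differences of -0.76 in cKO and -0.75 in wild type (adjusted p = 0.0159 and 0.00438). H2bc3 (Hist1h2bb, probe 2754092) was the only H2B probe called between the days, in either genotype. It read 6.24, 5.71 and 5.87 at D4 in cKO, against 7.20, 7.22 and 6.64 at D3 (-1.08 ± 0.18, adjusted p = 0.0109). It is the dimmest H2B probe and was detected on 1 of 6 D4 and on all 6 D3 arrays, so it met the detection rule through the days on which it was high. With no D4 wild type array above background, its wild type fall is at least 1.41-fold (measured difference -0.68, adjusted p = 0.0239), and that of H4c3 at least 1.42-fold (measured difference -0.76, adjusted p = 0.0423).

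Among H3 genes, which encode the core histone whose tail carries many regulatory marks, H3c6 (Hist1h3e, probe 2951691) read 10.46, 10.19 and 10.33 in D4 cKO cultures, against 11.10, 11.13 and 11.21 in D3 cKO cultures (-0.82 ± 0.16, adjusted p = 0.0172). In wild type it read 10.38, 11.05 and 10.95 at D4, against 11.24, 11.33 and 11.33 at D3 (-0.51, adjusted p = 0.0420), a smaller gap under the fold limit that still left the days apart. H3c4 (Hist1h3d, probe 2729958) read 10.70, 10.44 and 10.62 in D4 cKO, against 11.11, 11.29 and 11.38 in D3 cKO cultures (-0.67 ± 0.13, adjusted p = 0.0195). The falls of H3c1, H3c7 probe 2748164 and H3c10 probe 2698519 were -0.82, -0.86 and -0.85 in cKO cultures. On D4 wild type replicate 1 the H3 class lay 0.84 below the D3 wild type mean, beside 0.25 and 0.35 on the other D4 wild type arrays. H3c10 showed how far probes of a gene can part. Its bright probe 2592253, the brightest of the class, differed by -0.15 in cKO and -0.16 in wild type cultures, and the called probe 2698519 by -0.85 and -0.55. H3c8, the dimmest H3 probe, differed by 0.05 in cKO and 0.73 (adjusted p = 0.0648) in wild type cultures.

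**Figure D4:**
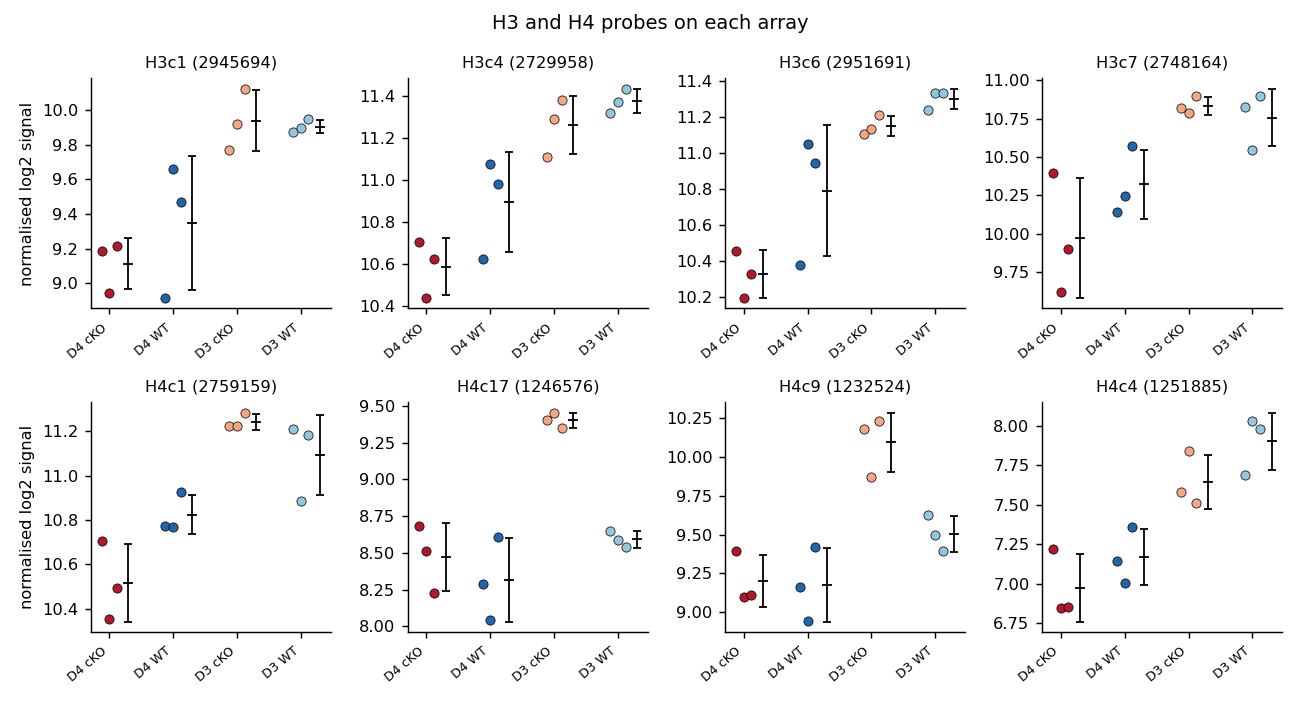
Normalised log2 signal of 4 H3 and 4 H4 probes on each of 12 arrays, with the mean and SD of 3 arrays beside the points. Vertical axes differ between panels and do not start at 0. In each panel the D4 cKO points lie below the D3 cKO points, and for H4c4 the wild type days are as far apart (-0.73) as those of cKO (-0.67).

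Within H2A the probes that fell were the dim ones. H2ac4 (Hist1h2ab, probe 2704873) read 7.57, 7.52 and 7.47 in D4 cKO cultures, against 8.45, 8.10 and 8.54 in D3 cKO cultures (-0.84 ± 0.15, adjusted p = 0.0133). H2ac8 differed by -1.08 ± 0.14 (adjusted p = 0.00532) in cKO, with the readings given above, and by -0.15 (adjusted p = 0.510) in wild type. Of its 3 D4 cKO arrays, 2 detected it. The brightest H2A probe, 2745212 of H2ac13, read 14.91, 14.67 and 14.47 in D4 cKO, against 14.95, 14.85 and 14.80 in D3 cKO cultures, and its difference was -0.18. Across the 14 H2A probes, mean signal and the cKO day difference correlated at r = 0.87, and over all 54 probes at r = 0.55. In H2B (11 probes) the same r was 0.91, in H3 (10) -0.07 and in H4 (16) 0.11. The H2B value leans on 1 dim probe, that of H2bc3, with a mean signal of 6.44 and a difference of -1.08. The other H2B probes had mean signals of 10.16 to 12.10 and differences of -0.13 to 0.28, and r without H2bc3 was not computed. In wild type it was 0.28 in H2A, 0.68 in H2B, -0.52 in H3, 0.50 in H4 and 0.26 over all 54 probes. The probes share their arrays and, within a class, part of their sequence, so this describes these arrays and carries no test.

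**Figure D5:**
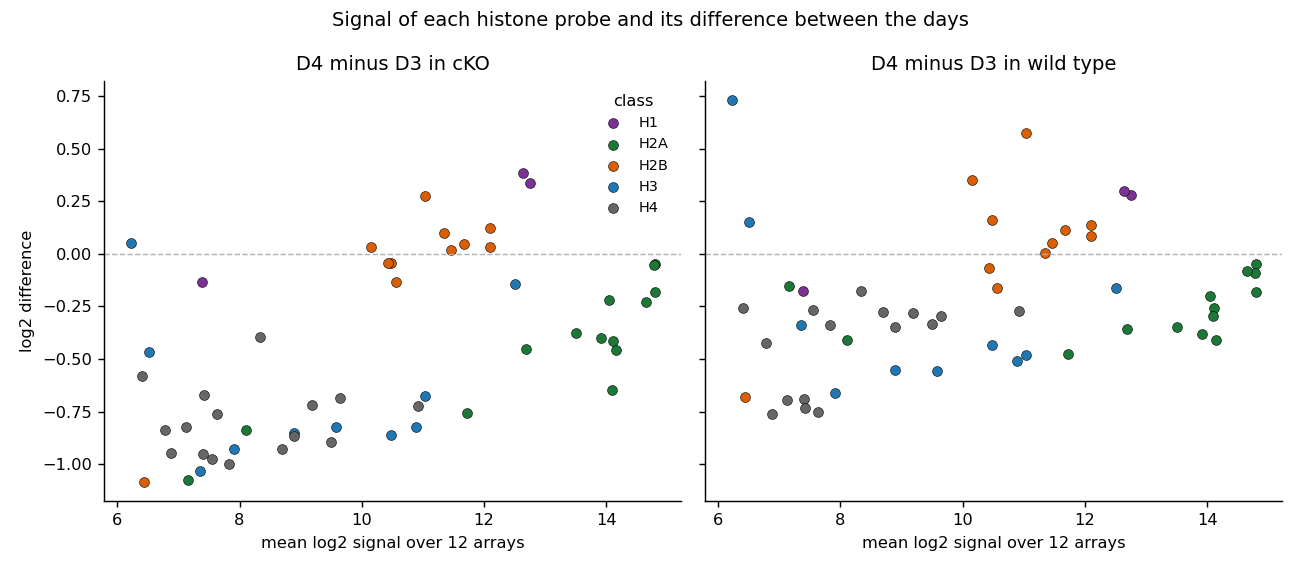
Mean log2 signal over 12 arrays (horizontal) and log2 difference of D4 minus D3 (vertical) for each of 54 histone probes, in cKO (left) and in wild type (right), coloured by class. In cKO the brightest H2A probe lies at -0.18 and the dimmest at -1.08, while all H4 probes lie below 0.

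The histone classes were next set beside genes of DNA replication, since histone and DNA synthesis run together in S phase. Of 86 replication probes, 32 fell in cKO and 45 in wild type cultures, with medians of -0.60 and -0.63 and none rising in either. Leaving out 1 array at a time gave 12 (without D3 cKO replicate 1) to 40 (without D4 cKO replicate 1) in cKO and 33 to 48 in wild type. The cKO count was also 14 without D4 cKO replicate 2, 13 without D4 cKO replicate 3, and 20 without D3 cKO replicate 2 or 3. The largest called differences in cKO were those of Dbf4 (-1.13), the activator of the replication kinase Cdc7, of Mcm4 (-1.12), a subunit of the replicative helicase, of Ccne2 (-1.08), a cyclin of S-phase entry, and of Clspn (-1.06), which relays replication stress. In wild type they were Mcm4 (-1.36), Pole (-1.26), the leading strand polymerase, Dbf4 (-1.23) and Mcm3 (-1.13). By genotype, 1 replication probe was higher and 1 lower at each day. Of 37 probes of mitotic genes, 12 fell in cKO and 23 in wild type cultures, with medians of -0.56 and -0.72. With 1 array left out the mitotic count ran between 1 (without D3 cKO replicate 3 or D4 cKO replicate 3) and 20 (without D4 cKO replicate 1) in cKO. It was 2 without D3 cKO replicate 1 or D4 cKO replicate 2, 4 without D3 cKO replicate 2, 6 without D3 wild type replicate 2, 5 without D3 wild type replicate 3 and 7 without D4 wild type replicate 2. In wild type it ran between 12 (without D4 replicate 1) and 25, and was 14 without D3 replicate 3. For histone probes the same medians were -0.53 in cKO and -0.27 in wild type. The difference between these falls was tested per probe by the interaction of day and genotype. No histone probe passed (lowest adjusted p = 0.347, for H2ac8), nor did any of 19972 probes (lowest adjusted p = 0.111), with 7 histone probes and 1494 probes in all at an unadjusted p under 0.05. Of these 7, 6 were H4 probes. The median interaction, which is the day difference in cKO minus that in wild type, was -0.21 for histone probes, -0.40 for H4, -0.31 for H3 and 0.08 for replication genes. A larger fall of histone mRNA in cKO cultures was therefore not established.

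Histone genes outside the cluster and genes of histone metabolism were counted in the same way, and no test sets their counts against those of the cluster. Among all tested probes, 1.59% fell and 2.18% rose in cKO, and 5.06% fell and 6.3% rose in wild type cultures. By genotype, 2.59% were higher and 1.33% lower at D4, and 1.75% and 0.501% at D3. In lists this small, no call or 1 call is near these shares. Of 14 probes of other replication-dependent histone genes, 1 rose and 2 fell in cKO and 3 rose and none fell in wild type cultures, with no genotype call on either day. H2ac18 rose by 0.75 in cKO (adjusted p = 0.0122) and 0.90 in wild type (adjusted p = 0.00129) on probe 1231053, opposite in sign to all 14 H2A probes of chromosome 13. H2ac19 rose by 0.71 in wild type (adjusted p = 0.00534), while H2bc21 (-0.72) and H4f16 (-1.15) fell in cKO. Of 17 probes of replacement and variant histones, many of which are also made outside S phase, only H2ax was called. H2ax, the variant phosphorylated at DNA breaks, differed by -0.71 in wild type (adjusted p = 0.00102) beside -0.51 in cKO cultures. None of 24 probes for histone mRNA processing and histone gene transcription was called in any comparison, with medians of -0.23 in cKO and -0.26 in wild type between days. Of 26 probes of histone chaperones and import factors, 4 fell in cKO and 5 in wild type. Asf1b, which hands H3 and H4 to the replication fork, differed by -0.68 and -0.89, and Chaf1a, of the chromatin assembly factor, fell by 1.01 in wild type (-0.58 in cKO, under the fold limit). Hira, a chaperone of replacement H3, was lower in D4 cKO than in D4 wild type cultures on 1 of 2 probes (-0.68), and Rbbp4, a subunit of several chromatin complexes, was higher in D3 cKO cultures on 1 of 3 probes (0.84).

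The cluster lies in 2 stretches, the first at 21715711 to 22043658 with 17 tested genes and the second at 23531044 to 23934913 with 22. In cKO cultures 8 of 24 probes of the first and 11 of 30 of the second fell between the days, with medians of -0.46 and -0.63. At D3, 4 and 5 probes were higher in cKO, so that calls of either kind lay in both stretches. Of 8 tested probes of non-histone genes between the first and last histone gene, none fell. Among all tested probes 1.59% fell in cKO and 5.06% in wild type cultures, so 8 probes are too few to set these genes apart from the histone genes. Hfe, a regulator of iron uptake, was higher in cKO on 1 probe at D4 (0.94, adjusted p = 0.0185) and on the other at D3 (0.78, adjusted p = 0.00898, probe 2870696). In wild type cultures this Hfe probe rose by 0.66 between the days, and Btn1a1, a protein of the milk fat globule, rose by 0.67 on 1 probe.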

How the data were processed

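RNA of 12 MEC cultures was measured on Illumina Mouse WG-6 v2 BeadChips. The authors deposited non-normalized intensity values, 1 per probe and array, from GenomeStudio (version not given), and these were the starting point. The detection p-values are as deposited and compare a probe with the negative controls of its array. Intensity values that the authors had processed further, by rank-invariant normalization, were an alternative, floored at 10. The neqc function of limma 3.58.1 (R 4.3.3, offset 16) corrected the background, normalized by quantiles and took log2, and 1 model with 4 group means was fitted. The methods' Illumina custom error model was not run. Adjustment of p-values (Benjamini-Hochberg) ran over all 19972 probes tested. The script was tested on simulated data. Precision is limited by the number of arrays.

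The members and gene lists were chosen with earlier results of these data known. Probes named in full are the 20 of 26 called probes with the lowest adjusted p, the H1 probes, and the brightest and dimmest of each class. Other probes (H2bc4, H2bc6, H2bc11, H2bc12, H2ac7, H2ac11, H2ac12, H2ac15, H3c1, H3c7 and the called H4 probes outside those 20) were named after their values were seen. Of the probes on the array, 34885 carry 1 gene symbol in the platform annotation, 18 several and 10378 none. Probe sequences were not used here. The symbol Symk, as written in the list of histone mRNA processing genes, matched no annotated gene, so that list holds no probe for it. Of the marker lists, endothelial, adipocyte and fibroblast genes were also examined: no endothelial (9) or adipocyte (2) probe was called by genotype, 1 of 14 fibroblast probes was higher in cKO each day, 1 of 23 luminal probes was lower in cKO at D4, and 3 of 6 myeloid probes were lower in cKO at D4.

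The BeadChip of each D4 array was read from column names in a table of the study, where 598 of 598 probes on each D4 array had exactly the processed value. Residuals of arrays with the same number correlated at 0.31, 0.35 and 0.36 between D4 and D3 in cKO, which was taken as pairing there, at 0.18, 0.13 and 0.08 in wild type, at -0.05, 0.03 and -0.08 between genotypes at D4 and at 0.14, 0.09 and 0.10 at D3.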

Additional observations from a re-analysis of the deposited data

How the results depend on the processing

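No call of a histone probe changed sign under any alternative. Of 838 values of 40 calls under the alternatives, 614 remained called and 224 did not. Counts are given for probes lower at D4 in cKO, lower at D4 in wild type, higher in cKO at D3, higher in cKO at D4 and lower in cKO at D4, which were 19, 5, 9, 5 and 2. With a replicate block in the fit of all arrays they were 19, 5, 10, 5 and 1, and with only the arrays of the groups compared and the block 11, 5, 4, 0 and 0. Without the block, those fits gave 3, 5, 9, 3 and 1. Over all tested probes the same counts were 317, 1011, 349, 517 and 266 in the main fit. In fits of the compared groups alone they were 156, 979, 254, 297 and 62 with the block, and 30, 1007, 288, 400 and 172 without it. Without background correction the histone counts were 11, 0, 6, 3 and 0, without a filter on dim probes 17, 3, 9, 4 and 1, and with the authors' processed values 17, 4, 8, 7 and 1. With 1 probe a gene 3 fell in wild type, and without a fold minimum 9 fell and 2 rose in wild type. An unpaired t-test, which was not the methods' test for array probes, gave 0, 1, 0, 1 and 0 after Benjamini-Hochberg adjustment. Over all 19972 tested probes it gave 0, 345, 5, 110 and 21. Unadjusted, the histone counts were 24, 5, 11, 5 and 1, with 1 probe that rose in wild type, as with the processed values. Leaving out each array in turn gave 7 to 23, 2 to 5, 4 to 10, 3 to 5 and 1 to 4, and 0 to 1 probes that rose in wild type. The lowest D3 count was that without D3 wild type replicate 2, the lowest higher count at D4 that without D4 cKO replicate 3. The count lower at D4 was 4 without D4 wild type replicate 1. Of the remaining arrays, leaving out any but D4 cKO replicate 1 gave 1. The cause of these changes was not tested. Probes not above background on an array carry only a bound there.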
